A study of Rattus norvegicus with 29 samples.

Results

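Genes that fibroblasts of the meninges and of blood vessel walls transcribe strongly were followed through 29 arrays of rat basolateral amygdala: Mgp, Aldh1a2, Col1a1, Col1a2, Col3a1, Dcn, Igf2, Igfbp2 and Ptgds. They were taken by their annotated symbols, which gave 9 genes of 10411 named on the array, and 14 of its 15866 probe sets (a probe set is the group of short probes that reports 1 transcript). The question put to them was whether meningeal tissue came along unevenly with the dissected amygdala and whether the treatment groups differed in these genes. No member passed the test in any comparison of groups. Within groups, Ptgds, Igfbp2 and Igf2 spread more widely than nearly all other transcripts, and single arrays carried most of the members high together.

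The series asked which transcripts of the basolateral amygdala, a brain nucleus needed for learned fear, differ after fear conditioning and after the anaesthetic isoflurane, which can block the memory. Total RNA of 29 samples was hybridised, each to its own 1-colour array. The baseline group held 9 arrays, with no time given. The other 4 groups held 5 arrays each, taken 6 h after pain, after isoflurane, after conditioning, or after conditioning in the presence of isoflurane. Pain is a component of the conditioning procedure. The conditioning groups are titled only FC and IFC in the labels, and IFC was read as conditioning with isoflurane from the design statement. Neither strain, sex, age nor dose is given in the labels used here. Rat numbers are given for 15 arrays, those of pain, conditioning and conditioning under isoflurane. For the others nothing states that replicates came from separate animals, so p-values measure the spread between these samples, which may be technical in part. The labels of the baseline and isoflurane arrays give a labelling kit and those of the other arrays give none, so a difference of kit between those and the other 3 groups cannot be told apart from their treatments.

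The leptomeninges are thin sheets of fibroblasts on the brain surface that also follow vessels into the tissue. These cells lay down collagen and proteoglycan, make retinoic acid, and secrete insulin-like growth factor 2, its binding proteins and prostaglandin D synthase into the cerebrospinal fluid. Neurons of the adult amygdala are not known as the main source of fibrillar collagen. The members are not markers of 1 cell type alone: the choroid plexus, the secretory tissue of the ventricles, also makes Igf2, Igfbp2 and Ptgds, oligodendrocytes make Ptgds, and vessel wall cells make collagens and Mgp. In tissue RNA of this kind, fewer cells of a type and less RNA per cell cannot be told apart.

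Promoter sequence is shown for the 5 members with a window in the reference table, since these 5 supplied the 5 closest pairs described further on. Each line holds the 250 bases before a RefSeq transcription start on the rat build GRCr8, written 5′ to 3′ on the gene's strand. Capitals mark matches, on either strand, to 4 promoter motifs: the TATA box, searched as TATAAA, the CCAAT box, searched by those letters, the GC box, searched as GGGCGG, and the AP-1 site, searched as TGANTCA. Mgp, Col1a1, Col3a1 and Dcn were not matched.
Ptgds, chr3:28682979-28683228, minus strand: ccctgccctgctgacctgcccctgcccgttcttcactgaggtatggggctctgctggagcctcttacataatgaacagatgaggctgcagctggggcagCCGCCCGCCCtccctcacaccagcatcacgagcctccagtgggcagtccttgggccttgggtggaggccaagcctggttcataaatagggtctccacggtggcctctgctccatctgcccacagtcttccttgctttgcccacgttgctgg
Igfbp2, chr9:81864561-81864810, plus strand: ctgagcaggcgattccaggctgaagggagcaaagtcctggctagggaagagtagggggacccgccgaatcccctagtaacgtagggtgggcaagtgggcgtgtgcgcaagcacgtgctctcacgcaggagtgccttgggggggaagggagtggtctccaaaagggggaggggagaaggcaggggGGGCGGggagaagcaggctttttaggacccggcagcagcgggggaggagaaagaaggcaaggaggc
Igf2, first window, chr1:207250476-207250725, minus strand: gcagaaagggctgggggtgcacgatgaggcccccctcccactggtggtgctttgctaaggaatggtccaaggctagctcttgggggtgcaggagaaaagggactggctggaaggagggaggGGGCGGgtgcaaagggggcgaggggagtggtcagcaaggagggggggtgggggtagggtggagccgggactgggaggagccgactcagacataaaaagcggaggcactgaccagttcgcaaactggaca
Igf2, second window, chr1:207253981-207254230, minus strand: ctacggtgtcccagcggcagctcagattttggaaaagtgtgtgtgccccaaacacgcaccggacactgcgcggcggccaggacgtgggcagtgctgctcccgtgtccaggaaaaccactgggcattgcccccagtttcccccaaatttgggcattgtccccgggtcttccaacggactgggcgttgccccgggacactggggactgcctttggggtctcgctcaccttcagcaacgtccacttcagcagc
Col1a2, chr4:33518307-33518556, plus strand: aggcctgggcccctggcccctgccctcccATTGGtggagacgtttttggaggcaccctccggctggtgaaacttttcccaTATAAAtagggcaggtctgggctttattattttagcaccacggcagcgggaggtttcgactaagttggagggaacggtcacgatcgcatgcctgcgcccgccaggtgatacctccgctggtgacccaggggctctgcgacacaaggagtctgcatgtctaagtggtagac
Aldh1a2, chr8:80758391-80758640, plus strand: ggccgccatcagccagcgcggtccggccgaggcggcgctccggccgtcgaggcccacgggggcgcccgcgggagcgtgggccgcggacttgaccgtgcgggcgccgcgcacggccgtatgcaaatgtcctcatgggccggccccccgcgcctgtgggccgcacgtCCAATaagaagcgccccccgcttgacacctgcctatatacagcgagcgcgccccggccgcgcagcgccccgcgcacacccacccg

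The GC box was matched in 3 of these 6 windows. Ptgds held 2 matches that overlap each other, and Igfbp2 and the first Igf2 window held 1 each. Among all 33469 windows of this length in the table, 30.5% held a GC box. Col1a2 held 1 TATA box, found in 12.9% of all windows, and 1 CCAAT box, found in 34.0%. Aldh1a2 held 1 CCAAT box. No window of a member held an AP-1 site, which 6.3% of all windows did. No motif was common to all 5 genes, and the matches describe letters only.

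Of the 14 probe sets, 7 had a mean above the level set for testing, 7.26 on the log2 scale of the normalized signal, which 9520 of 15866 probe sets reached. They were 1 each for Mgp, Aldh1a2, Col1a1, Dcn, Igf2, Igfbp2 and Ptgds. Both Col1a2 probe sets, the Col3a1 probe set, a second Col1a1 probe set and 3 further Igf2 probe sets lay below it. The 3 dim Igf2 probe sets lay at the floor of 4.00, a signal of 16, on 20, 21 and 22 of the 29 arrays and carry almost no measurement. A gene's values below come from its brightest probe set, and every difference is in log2 units, in which 1 unit doubles the signal.

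Some arrays stood apart before any group was compared. A member score was computed for each array, the mean over the 9 genes of the value minus its group mean. It was 1.01 on pain replicate 1, 0.88 on conditioning under isoflurane replicate 3, 0.69 on baseline replicate 1, 0.60 on conditioning replicate 3 and 0.43 on baseline replicate 6. Isoflurane replicate 4 followed at 0.35, and the other 23 arrays lay at or below 0.11. On pain replicate 1 all 9 members were the highest of their group, while that array was the highest of its group for 19.3% of all tested probe sets. On conditioning under isoflurane replicate 3 it was 8 of 9 members, against 20.9% of tested probe sets. On conditioning replicate 3 it was 6 of 9 (19.1%), on isoflurane replicate 4 also 6 of 9 (20.3%), on baseline replicate 1 it was 4 of 9 (13.5%) and on baseline replicate 6 it was 2 of 9 (11.2%). The first 4 arrays kept their order with the deposited scaling and with arrays centred on their medians. With the deposited scaling isoflurane replicate 4, at 0.37, passed baseline replicate 6, at 0.34. The 5 arrays above 0.4, a value set after the data were seen, are left out together below, and since the members' own values chose them, their high members are a description with no test.

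**Figure D1:**
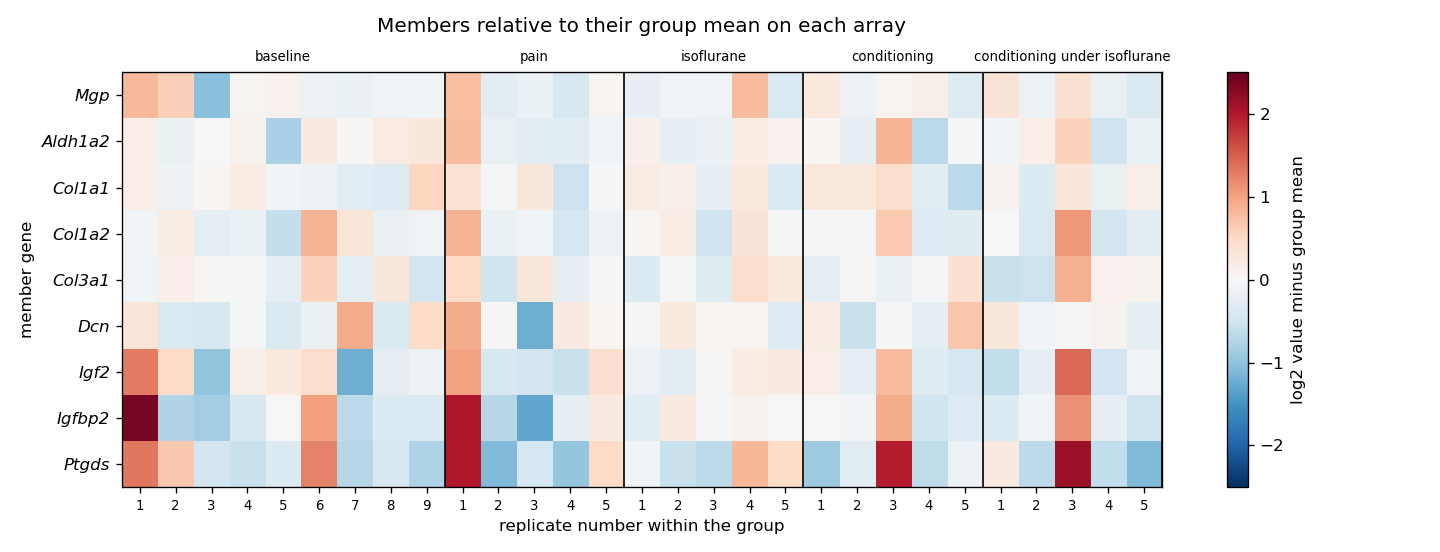
Each square is 1 member gene (rows) on 1 array (columns, by replicate number within the 5 groups), coloured by its log2 value minus the mean of its group. Pain replicate 1 is red in all 9 rows, and conditioning under isoflurane replicate 3 in 8 of 9; Dcn follows the other rows least.

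Ptgds, the prostaglandin D synthase that is also a carrier protein of the cerebrospinal fluid, varied most. Its baseline values were 11.95, 11.32, 10.18, 10.07, 10.28, 11.88, 9.91, 10.24 and 9.87. After pain they were 13.57, 10.47, 11.13, 10.59 and 12.07, and after isoflurane 10.42, 9.92, 9.82, 11.31 and 10.94. Replicates 1, 6 and 2 at baseline stood above the rest of that group, and pain replicate 1 above every other array of the study. The conditioning arrays read 10.11, 10.74, 12.97, 10.39 and 10.88, and those of conditioning under isoflurane 11.21, 10.33, 13.15, 10.38 and 9.89. In each of these 2 groups replicate 3 alone lay above the others, and all 5 groups overlapped. As deposited, the signal was 12976.5 on pain replicate 1, against 1410.8 to 4408.4 on the other pain arrays. Against the median of the remaining arrays of its group, each of the 5 arrays was higher by 1.70 to 2.80, a fold of 3.24 to 6.95. The SD within groups was 1.04, larger than that of 99.8% of the tested probe sets, whose median was 0.23; without the 5 arrays it was 0.56.

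By group, Ptgds averaged 11.57 (SD 1.28, n = 5) after pain, 11.02 (SD 1.13, n = 5) after conditioning, 10.99 (SD 1.30, n = 5) after conditioning under isoflurane, 10.63 (SD 0.84, n = 9) at baseline and 10.48 (SD 0.64, n = 5) after isoflurane. No neighbours in this order differed beyond their error: the steps were 0.55 (SE 0.59), 0.02 (SE 0.59), 0.36 (SE 0.52) and 0.15 (SE 0.52). Pain minus baseline was 0.93 (SE 0.52, limma adjusted p 0.585). Without the 5 arrays it was 0.80 (SE 0.31, limma adjusted p 0.472), an SE narrowed by the choice of those arrays on values that include Ptgds.

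Igfbp2, a binding protein that carries insulin-like growth factors, also had high arrays in 4 of the 5 groups. Baseline replicate 1 read 11.35 and replicate 6 read 10.01, while the other 7 lay between 8.13 and 8.99. After pain the values were 10.87, 8.15, 7.57, 8.63 and 9.08. Only replicate 1 of the pain group stood apart on the high side, while replicate 3 was the lowest of the 29 arrays. Pain replicate 3 also had the highest median deposited signal, 292.2, and was the highest of its group for 28.5% of tested probe sets. Whether this bears on its low members was not tested. After conditioning the Igfbp2 values were 9.10, 9.04, 10.04, 8.61 and 8.79, and after conditioning under isoflurane 8.44, 8.67, 9.92, 8.57 and 8.28. The isoflurane arrays lay close together, from 8.56 to 9.06, with an SD of 0.18. Each of the 5 arrays exceeded every remaining array of its group, by 1.12 to 2.77 over the median, a fold of 2.18 to 6.81. The SD within groups was 0.87 with them and 0.34 without them. Group means ran from 8.78 (conditioning under isoflurane) to 9.12 (conditioning), a span below the SD of 4 of the 5 groups, and no comparison passed.

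Igf2, the growth factor that Igfbp2 binds and a product of the adult meninges and choroid plexus, had a similar set of high arrays. Conditioning under isoflurane replicate 3 read 9.89, against 7.87, 8.24, 7.99 and 8.40 on the others. Pain replicate 1 read 9.28, against 7.88, 7.79, 7.73 and 8.70. At baseline the lowest value was 7.19, the median 8.54 and the highest 9.67, on replicate 1. Conditioning ran from 7.93 to 9.13, the highest on replicate 3, and isoflurane from 7.71 to 8.20. The isoflurane mean was the lowest, 7.98 (SD 0.21, n = 5), against 8.40 (SD 0.76, n = 9) at baseline, a difference of -0.42 (SE 0.33, limma adjusted p 0.983). The groups overlapped, and the other group means lay between 8.28 and 8.48.

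**Figure D2:**
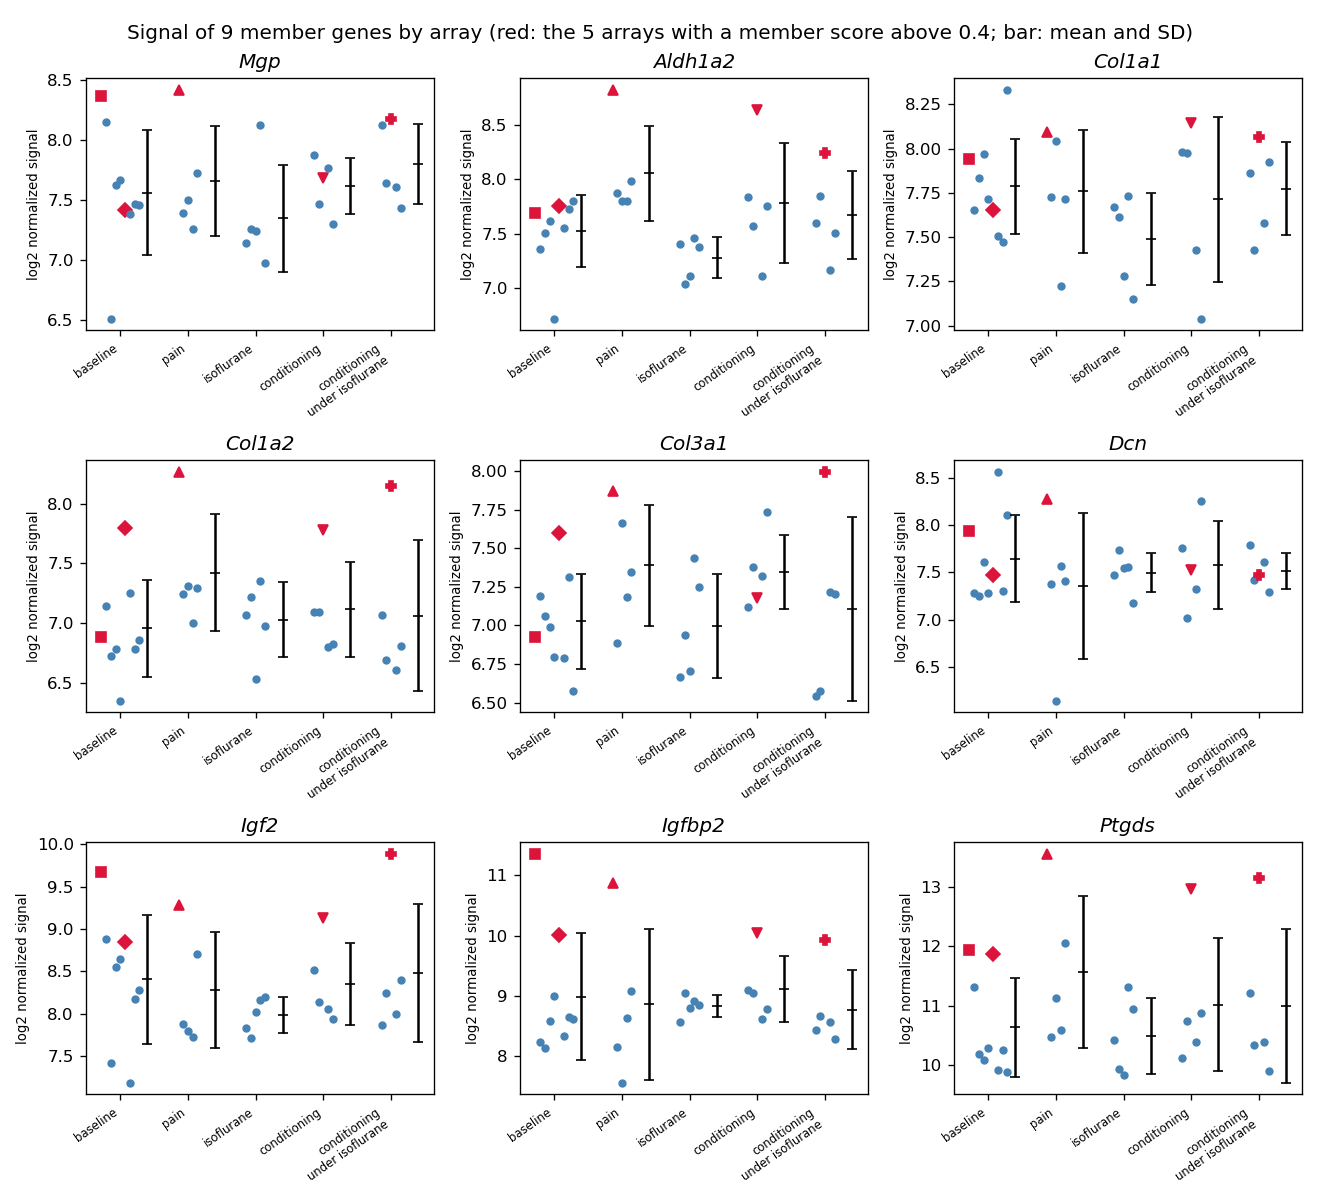
Log2 normalized signal of the 9 genes on each array, by group, with the mean and SD of the group beside the points; each panel has its own vertical scale. Red symbols are the 5 arrays with a member score above 0.4 (square baseline 1, diamond baseline 6, triangle up pain 1, triangle down conditioning 3, plus conditioning under isoflurane 3), which lie above the other arrays of their group in Ptgds and Igfbp2; in Dcn only pain replicate 1 does so.

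Aldh1a2, the enzyme that makes retinoic acid from retinal, was the member with the lowest p in the F test over the 5 groups. After pain the values were 8.82, 7.87, 7.80, 7.80 and 7.98. At baseline the lowest was 6.72, the median 7.61 and the highest 7.80, level with the lowest pain array. The isoflurane arrays ran from 7.04 to 7.46. Conditioning ran from 7.11 to 8.63 and conditioning under isoflurane from 7.16 to 8.24, with replicate 3 the highest in both. The means ran in the order pain 8.05 (SD 0.44, n = 5), conditioning 7.78 (SD 0.55, n = 5), conditioning under isoflurane 7.67 (SD 0.40, n = 5), baseline 7.52 (SD 0.33, n = 9) and isoflurane 7.28 (SD 0.19, n = 5). Neighbours in this order differed by 0.27 (SE 0.24), 0.11 (SE 0.24), 0.15 (SE 0.21) and 0.24 (SE 0.21), about 1 SE or less.

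Pain minus baseline for Aldh1a2 was 0.53 (SE 0.21), with p 0.0163 and a limma adjusted p of 0.477. It was the only test of a member, among all comparisons of groups, with an unadjusted p under 0.05. Its F test over the 5 groups had p 0.0297 (limma adjusted p 0.674). Without pain replicate 1 the difference was 0.34, and without all 5 high arrays 0.39 (SE 0.18, p 0.039, limma adjusted p 0.521). Over the 40 alternatives it ran from 0.34 to 0.68, with a lowest adjusted p of 0.261.

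The matrix genes were dimmer than Ptgds, Igfbp2 and Igf2, and they differed in which arrays stood high. Col1a2, a chain of type I collagen, read 8.26 on pain replicate 1, against 7.25, 7.31, 7.00 and 7.29 on the other pain arrays. On conditioning under isoflurane replicate 3 it read 8.14, against 6.61 to 7.07 on the others, and on conditioning replicate 3 it read 7.78, against 6.80 to 7.10. Baseline replicate 6 was the highest of its group at 7.80, while baseline replicate 1, at 6.88, lay among the others. Its second, dimmer probe set had the same highest array in each of these 4 groups, at 8.24, 7.49, 7.01 and 7.05 in the same order.

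Col3a1, the chain of type III collagen, shared 3 of these arrays: it read 7.87 on pain replicate 1, 7.99 on conditioning under isoflurane replicate 3 and 7.60 on baseline replicate 6, each the highest of its group. On conditioning replicate 3 it read 7.18, next to the lowest of that group. Col1a1, the partner chain of Col1a2 in type I collagen, stayed between 7.04 and 8.33. It was above all remaining arrays of the group on pain replicate 1 (8.10), conditioning replicate 3 (8.15) and conditioning under isoflurane replicate 3 (8.07). The margins were small: the 5 arrays lay between -0.06 and 0.45 from the median of the others of their group, and the highest baseline array was replicate 9. The second Col1a1 probe set averaged 5.22, below the filter, and read highest, 7.25, on conditioning under isoflurane replicate 3.

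Mgp, matrix Gla protein, an inhibitor of calcification in vessel walls, was high on baseline replicate 1 (8.37), pain replicate 1 (8.42) and conditioning under isoflurane replicate 3 (8.18). Conditioning replicate 3 (7.68) and baseline replicate 6 (7.42) did not stand out. Isoflurane replicate 4 read 8.12, against 6.97 to 7.26 on the other isoflurane arrays. Dcn, decorin, a proteoglycan that binds collagen fibrils, was above all remaining arrays of its group on pain replicate 1 alone (8.28, against 6.14 to 7.57). Its highest baseline value, 8.57, was on replicate 7. The SD within groups was 0.47 for Dcn and 0.46 without the 5 arrays; for Col1a1 it was 0.32 in both cases. For Col1a2 it was 0.45 with them and 0.25 without them. So the 5 arrays held much of the spread of Ptgds, Igfbp2 and Col1a2 and little of that of Dcn and Col1a1. The score averages unscaled log2 values, so the widely spread genes weighed most in the choice of these arrays. This contrast between genes follows in part from that choice.

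No comparison called a member at a limma adjusted p under 0.05. In pain minus baseline 0 of 7 were called and 1 had an unadjusted p under 0.05; over all 9520 probe sets 0% were called and 8.96% had such a p. In isoflurane minus baseline it was 0 of 7 on both counts, against 0.0105% called and 5.38% with such a p. In conditioning minus baseline it was again 0 of 7 on both, against 0% and 10.1%. In conditioning under isoflurane minus baseline the counts were 0 of 7, against 0% and 6.5%. Conditioning minus pain gave 0 of 7, against 0% and 9.04%. Conditioning under isoflurane minus conditioning gave 0 of 7 (0% and 3.69%), and conditioning under isoflurane minus isoflurane 0 of 7 (0% and 4%). The interaction of conditioning and isoflurane, the difference between the effect of isoflurane with and without conditioning, gave 0 of 7 (0% and 4.79%). In the F test over the 5 groups 0 of 7 were called and 1, Aldh1a2, had an unadjusted p under 0.05, against 0% and 7.35%. With 7 members tested, counts of 0 or 1 are too small to place their share above or below the background. With no filter all 14 probe sets entered, and 0 were called. The SEs show the limits of these tests: for Ptgds a difference of groups had an SE of 0.52 to 0.59, while for Col1a1 it was 0.18 to 0.20.

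As a list, the 9 genes had a median difference of 0.10 in pain minus baseline, where 5 were higher and 4 lower. In isoflurane minus baseline the median was -0.15 with 8 of 9 lower. In conditioning minus baseline it was 0.13 with 6 higher, and in conditioning under isoflurane minus baseline 0.08 with 6 higher. These 4 comparisons share the baseline arrays. Conditioning minus pain had a median of -0.04 with 6 lower, and conditioning under isoflurane minus conditioning one of -0.05 with 6 lower. Conditioning under isoflurane minus isoflurane had the largest, 0.28 with 8 of 9 higher, and it shares the isoflurane arrays with the comparison in which 8 were lower. The interaction had a median of 0.13 with 6 higher. The median of all tested probe sets was between -0.0025 and 0.0058 in these comparisons, and 49.2% to 51.8% of them were higher. Several members ran high on the same few arrays, so the counts do not rest on 9 separate observations. Only the medians of isoflurane minus baseline (-0.29 to -0.11) and of conditioning under isoflurane minus isoflurane (0.03 to 0.35) kept their sign under all 41 alternatives. Without the 5 arrays their counts were 5 of 9 lower and 5 of 9 higher: in isoflurane minus baseline Igfbp2 was then at 0.33 (SE 0.18) and Ptgds at 0.22 (SE 0.29), both at -0.15 with all arrays. That choice took high arrays from every group but isoflurane, so these shifts follow in part from it.

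**Figure D3:**
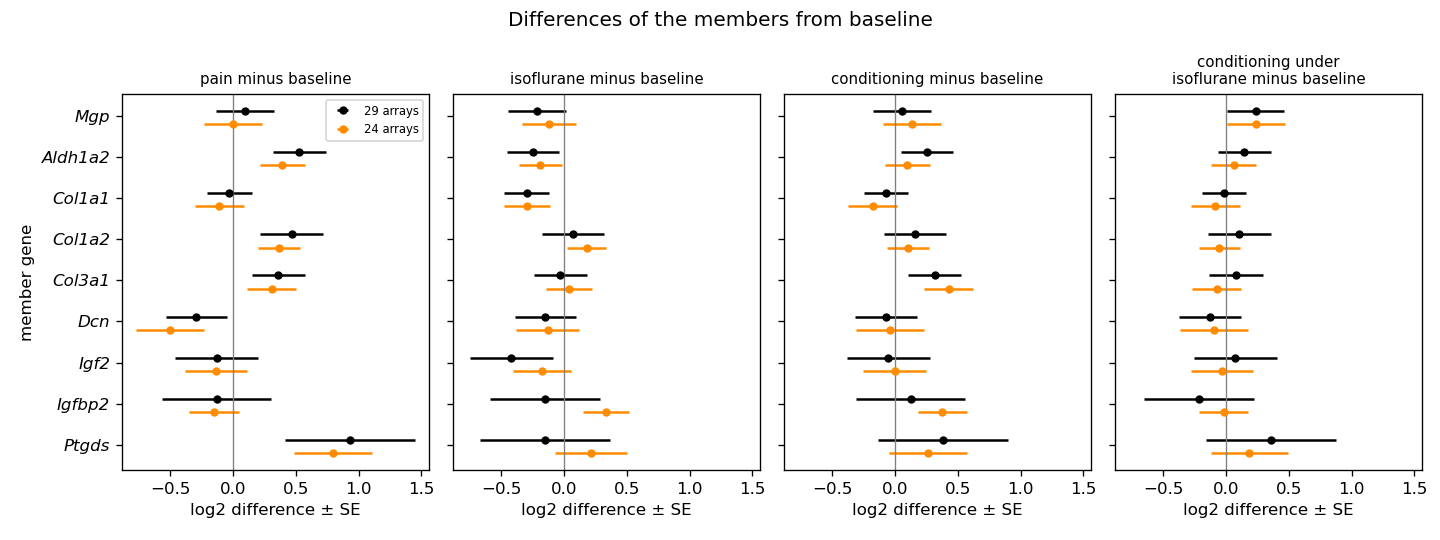
Fitted log2 difference from baseline, with its SE, for each member (rows) in the 4 treated groups (panels), from all 29 arrays (black) and from the 24 arrays left without the 5 with a member score above 0.4 (orange). Ptgds in pain minus baseline is the largest, 0.93 with 29 arrays and 0.80 with 24, and no member passed the adjusted threshold in either fit.

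Without the 5 arrays, the fit of the remaining 24 also called 0 members. Since the members' own high values chose those arrays, leaving them out narrows the members' spread, and the p-values of this fit are too small for that reason. The choice also shifts the differences themselves. It took the highest arrays from every group but isoflurane, which kept all 5, so comparisons with isoflurane move by construction. Unadjusted p under 0.05 was then reached by 2 of 7 in pain minus baseline (Aldh1a2 and Ptgds), where 9.23% of all tested probe sets reached it, and by 1 of 7, Igfbp2, in conditioning minus pain (0.53, SE 0.22, p 0.025, limma adjusted p 0.321), where 13.4% did. Igfbp2 was also the 1 of 7 in the interaction (-0.73, SE 0.29, p 0.0181, limma adjusted p 0.926), where 5.04% did. With all arrays the Igfbp2 interaction was -0.19 (SE 0.66). Below the filter, Col1a2 differed by 0.37 (SE 0.17) in pain minus baseline with p 0.0387 and a limma adjusted p of 0.53 over all probe sets. Col3a1 differed by 0.43 (SE 0.20) in conditioning minus baseline (p 0.0411, limma adjusted p 0.624) and by -0.50 (SE 0.22) in conditioning under isoflurane minus conditioning (p 0.0342, limma adjusted p 0.861). None of these passed.

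The members varied together between arrays of the same group. With group means taken out, 34 of the 36 pairs correlated positively over 29 arrays, with a median r of 0.42 and a range of -0.14 to 0.80. A permutation test within groups, two-sided and adjusted by Benjamini-Hochberg over the 36 pairs, called 16 pairs by Pearson's r and 11 of them by Spearman's rho as well. No share of called pairs among other genes was computed, so the count is not shown to be particular to the members. Igf2 and Igfbp2, ligand and binding protein, had the highest r, 0.80 (rho 0.68, permutation p 1e-05, the smallest these resamples can give, adjusted p 0.00036; r 0.72 without the 2 arrays farthest from the Igf2 median). Col1a2 and Ptgds had r 0.79 (rho 0.62, permutation p 0.00012, adjusted p 0.00108; r 0.71 without the 2 farthest arrays). Igf2 and Ptgds also had r 0.79 (rho 0.63, permutation p 2e-05, adjusted p 0.00036; 0.70 without 2 arrays). Igfbp2 and Ptgds had r 0.76 (rho 0.58, permutation p 0.00016, adjusted p 0.00108; 0.70 without 2 arrays), and Aldh1a2 and Col1a2 r 0.73 (rho 0.59, permutation p 0.00011, adjusted p 0.00108; 0.67 without 2 arrays).

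Not all members took part. Dcn had no called pair, with r from -0.14 (Col3a1) to 0.38 (Igfbp2), and Col1a1 had 1, with Col1a2 (r 0.45, rho 0.54, permutation p 0.0207, adjusted p 0.0467; 0.40 without the 2 farthest arrays). Against the mean of the other 8 members, r was 0.87 for Ptgds, 0.81 for Igfbp2, 0.80 for Igf2 and 0.76 for Col1a2. It was 0.68 for Aldh1a2, 0.62 for Mgp, 0.43 for Col3a1, 0.36 for Col1a1 and 0.21 for Dcn.

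The relation rested on the few arrays described above. Without the 5 arrays 0 of 36 pairs were called over the remaining 24 arrays, 22 were positive, and the median r was 0.11. The highest remaining r was 0.55, between Mgp and Igf2; that of Igf2 and Igfbp2 was 0.45 and that of Igfbp2 and Ptgds 0.11. Without pain replicate 1 alone 8 pairs were called, and without conditioning under isoflurane replicate 3 alone also 8; leaving out any other single array left 11 to 18. The members were also proposed as a set with results of these arrays known, so the pair tests are no independent evidence that they belong together. The 5 arrays were chosen by the members' sum, so that leaving them out lowers these correlations by construction. Median deposited signals of the 29 arrays ran from 210.7 to 292.2, the highest on pain replicate 3, and with the deposited scaling 21 pairs were called.

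**Figure D4:**
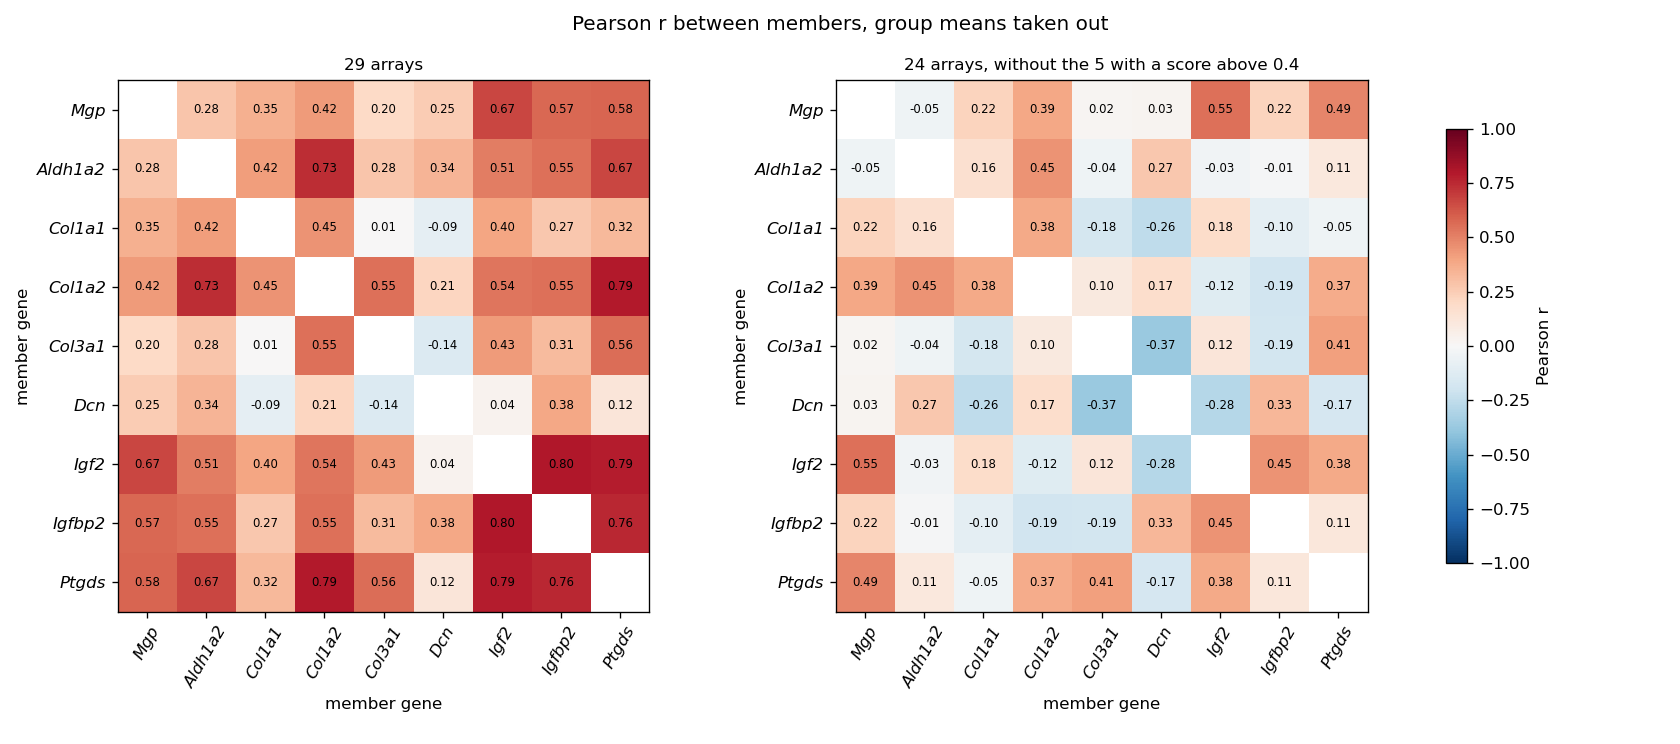
Pearson r for each pair of the 9 genes over 29 arrays (left) and over the 24 arrays without the 5 with a member score above 0.4 (right), with group means taken out; red is positive, blue negative. On the left r reaches 0.80 (Igf2 and Igfbp2) and 34 of 36 pairs are above 0; on the right the median is 0.11 and 22 pairs are above 0.

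The genes whose arrays ran most like the member score were Cdkn1c, an imprinted inhibitor of cyclin-dependent kinases (r 0.86, rho 0.70), and Slc13a4, a sulfate transporter (r 0.83, rho 0.77). Next came Ifitm2, an interferon-induced membrane protein (0.77), Lgals1, galectin 1 (0.74), Dab2, an endocytic adaptor (0.70), and Cxcl12, a chemokine (0.67). Ptpn14, a tyrosine phosphatase (0.64), Tnfsf13, a cytokine of the tumour necrosis factor family (0.62), Mustn1 (0.61) and Anxa2, annexin A2 (0.61), completed the 10. These were picked as the highest r and carry no test. Of the 9513 tested probe sets outside the members, 13 had r above 0.6 and 0 below -0.6. At a cut of 0.5 it was 47 above 0.5 and 24 below -0.5. Without the 5 arrays the r of Slc13a4 was 0.57 and that of Ptpn14 0.62, while Dab2 (0.04), Cxcl12 (0.07), Mustn1 (-0.07) and Anxa2 (-0.09) had almost none.

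Taken by member, Slc13a4 was the gene most like Igfbp2 (r 0.84) and Aldh1a2 (0.64), and Cdkn1c the one most like Ptgds (0.73). Ifitm2 was the one most like Igf2 (0.74). The other members had different closest genes. Col1a1 ran most like Apcs, serum amyloid P (r 0.75; 0.77 without the 5 arrays), and Slc22a8, an organic anion transporter listed among the leptomeningeal genes (0.68; 0.60). Dcn ran most like Tomm22, a mitochondrial import receptor (0.72; 0.80), and Ankrd17 (0.70; 0.69). Col3a1 ran most like Rb1 (0.69) and Ppp3r1 (0.64), Col1a2 like Rrp1 (0.66) and Rnf111 (0.64), and Mgp like Cst3, cystatin C (0.65), and Dusp1 (0.62).

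A longer list of leptomeningeal and fibroblast genes followed the members only in part. Of 42 listed genes 18 were tested, and the mean of these had r 0.34 to the member score, 0.16 without the 5 arrays; 12 of 18 had a positive r. Fn1, fibronectin, had 0.53, Islr 0.48, Gjb2, a connexin of meningeal cells, 0.38 and Slc22a8 0.33. Sparc, a collagen-binding protein that astrocytes also make, had -0.26 and Col5a2 -0.26. The mean level of the 18 genes was the highest of its group on pain replicate 1 (8.93), conditioning under isoflurane replicate 3 (8.69) and isoflurane replicate 4 (8.65). On baseline replicate 1 (8.48) and baseline replicate 6 (8.43) it ranked 7 and 8 of 9, and on conditioning replicate 3 (8.64) it ranked 3 of 5. Over groups its range was 8.41 to 8.72 at baseline, 8.48 to 8.93 after pain, 8.49 to 8.65 after isoflurane, 8.59 to 8.77 after conditioning and 8.51 to 8.69 after conditioning under isoflurane. Limma called 0 of the 18 in the F test and had 5 at an unadjusted p under 0.05, against 7.35% of all tested probe sets; Col5a2 (p 0.00418), Apod (0.0181) and Sparc (0.0251) had the lowest, each with a limma adjusted p of 0.674.

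Of the 5 arrays with high members, baseline replicate 1 also stood out in Ttr, Enpp2 and Folr1, markers of the choroid plexus. Ttr, transthyretin, the defining secreted protein of that tissue, read 13.87 on baseline replicate 1 and 6.99 to 10.43 on the other 8 baseline arrays. Its deposited signal there was 15284.2, against 128 to 1420.1 on the others. Enpp2, autotaxin, which oligodendrocytes also make, read 11.99 there against a baseline median of 9.27, and Folr1, a folate receptor, 9.83 against 8.12; both were the highest of the group. On pain replicate 1 Ttr read 8.38, on conditioning replicate 3 it read 7.86, on baseline replicate 6 it read 7.29, and on conditioning under isoflurane replicate 3 it read 6.92, the lowest of the 29 arrays. Next highest in Ttr after baseline replicate 1 was conditioning under isoflurane replicate 5, at 10.67, an array with a member score of -0.27. The mean of the 5 tested choroid plexus genes of 13 listed was 10.42 on baseline replicate 1. Over groups that mean ranged from 7.72 to 10.42 at baseline, 8.12 to 8.55 after pain, 7.99 to 8.30 after isoflurane, 8.22 to 8.85 after conditioning and 8.05 to 8.71 after conditioning under isoflurane. Limma called 0 of the 5 in any comparison. The other tested choroid plexus genes did not stand out on baseline replicate 1: Aqp1 read 9.00, ranked 2 of 9, and Prlr 7.40, ranked 6. Baseline replicate 1 was high in Igfbp2, Igf2, Ptgds, Mgp, Ttr, Enpp2 and Folr1, with Col1a2 (6.88) and Col3a1 (6.93) among the other baseline arrays. Conditioning under isoflurane replicate 3 was the highest of its group in every member but Dcn, with Ttr at its lowest. Enpp2 was the highest of that group there too, at 9.71 against a median of 9.37. The part of choroid plexus or meningeal tissue in either was not tested.

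Among markers of other cells, the striatal neuron list moved most with the score, in the opposite direction: its mean over 8 of 10 listed genes tested had r -0.37, and -0.30 without the 5 arrays. The r was -0.14 for endothelium (5 of 15) and 0.40 without the 5 arrays, and 0.12 for blood cells (3 of 8) and 0.39 without them. It was 0.19 and 0.25 for pericytes and vascular smooth muscle (4 of 14), and 0.17 and 0.05 for projection neurons of the basolateral amygdala (8 of 14). For astrocytes (12 of 12) it was -0.04 and 0.19, for oligodendrocytes (10 of 14) -0.03 and 0.07, and for ependyma (1 of 8) 0.01 and 0.02. So over the 24 arrays the endothelial and blood lists ran closer to the members than the leptomeningeal list did at 0.16, with no test of that difference. All of these are descriptions over 29 arrays that share their hybridisations. Limma called 0 genes of these lists in the F test; at an unadjusted p under 0.05 it had 5 of 12 astrocyte, 2 of 3 blood, 1 of 10 oligodendrocyte and 1 of 8 striatal genes, against 7.35% of all tested probe sets. Their part in the members' values was not tested. The blood marker Hbb, a globin, had a difference of -1.19 in pain minus baseline (SE 0.24, limma adjusted p 0.0704), and its r to the score was 0.22. Cldn5, the tight-junction protein of brain endothelium, had an r of 0.04. Among the markers of the labelled tissue, Slc17a7, the vesicular glutamate transporter of cortical-type projection neurons, read 11.62 (SD 0.54, n = 9) at baseline and 10.60 to 12.18 over all arrays.

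**Figure D5:**
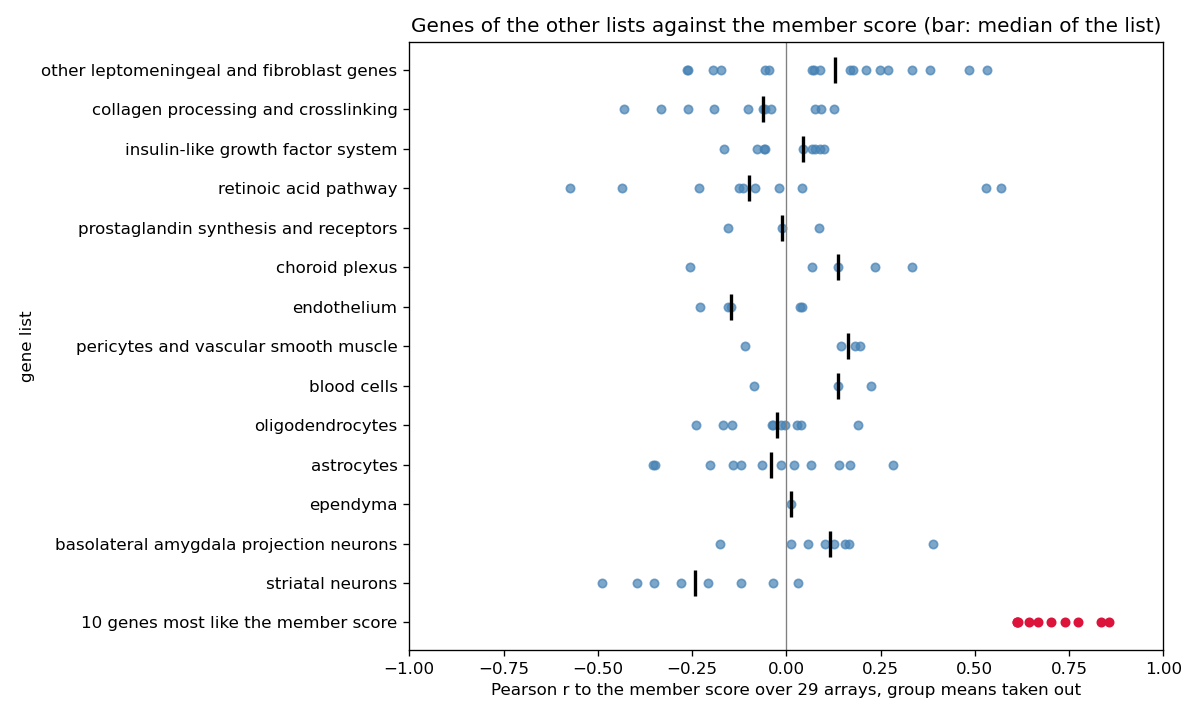
Each point is 1 tested gene of a list (rows), placed by its Pearson r to the member score over 29 arrays with group means taken out; bars are list medians, and the bottom row (red) holds the 10 genes of highest r. Those 10 lie between 0.61 and 0.86 by their choice, while the genes of the other lists spread around 0, with Fn1 at 0.53 among the leptomeningeal genes.

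The partner genes of the members' own pathways did not follow them as groups. In the retinoic acid pathway of Aldh1a2, 10 of 17 listed genes were tested, 0 were called by limma, and the list mean had r -0.04 to the member score, -0.39 without the 5 arrays. Single genes pointed both ways: Aldh1a1, a related retinal dehydrogenase, had r 0.57 and Rbp4, the retinol carrier, 0.53, while Rxrg, a retinoid receptor, had -0.57 and Crabp1 -0.43. Dhrs3, which turns retinal back to retinol, differed by 0.40 (SE 0.13) in pain minus baseline, with a limma adjusted p of 0.392. Cyp26b1, which degrades retinoic acid, differed by 0.82 (SE 0.33) in the same comparison, with a limma adjusted p of 0.49. Both estimates, like that of Aldh1a2, were above 0 and short of the threshold. Both genes were named for their low p in the F test and are given in their comparison of lowest p. The median of the 10 tested genes in pain minus baseline was 0.09.

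In the insulin-like growth factor system 9 of 13 listed genes were tested, 0 were called, and the list mean had r 0.02. Igf1r, the receptor of the growth factors, differed by 0.54 (SE 0.17) in conditioning under isoflurane minus baseline with a limma adjusted p of 0.606, and Igfbp5, another binding protein, by 0.40 (SE 0.13) in conditioning minus baseline with 0.415. Among genes of collagen processing 11 of 19 were tested, 0 were called and the r was -0.22; Serpinh1, the collagen chaperone, had an r of 0.13. Among prostaglandin genes 3 of 15 were tested, 0 were called and the r was -0.01. Ptger3, a prostaglandin E receptor, differed by -0.56 (SE 0.24) in conditioning minus baseline with a limma adjusted p of 0.45.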

How the data were processed

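Total RNA of rat basolateral amygdala was measured on 29 arrays, 1 sample each. The authors deposited 1 linear signal intensity for each probe set and array; each array had a trimmed mean (2% off each end) of 500.08 to 500.12, so the deposited intensities were scaled to a common level, while the software that made them is not given in the sources used here. Of 15923 probe sets 57 controls were left out. Symbols came from the platform annotation: 312 probe sets had several symbols and 2771 none, and 12748 matched the GRCr8 gene table. Because the log2 medians of arrays spanned 0.47, above 0.2, intensities were quantile normalized, floored at 16 and taken to log2. Probe sets at or above the 40th percentile of the mean were tested with limma 3.58.1 in R 4.3.3 (lmFit, eBayes with an intensity trend, 1 mean per group, all 29 arrays), with Benjamini-Hochberg adjustment over all 9520 and a threshold of 0.05. Correlations used 100000 permutations within groups. The limma step was tested on simulated data with independent noise for each probe set. That setting held no arrays on which genes rise together, as several members did here.

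The named genes were every probe set of the 9 members, up to 3 genes of each other list with the lowest p in the F test, the lead markers Ttr, Cldn5, Slc17a7 and Hbb, the 10 genes most like the member score and the 2 most like each member; other genes named were chosen after their values were seen. The members and lists were chosen with earlier results of these data known. No pair of arrays held identical values. Same-numbered arrays of different groups did not deviate together (50 pairs, median r -0.01, 12 above 0.1), so replicate numbers were not used as pairs. Other scalings, floors, filters and sets of arrays were tried. Probe number and array number limit the precision.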

Additional observations from a re-analysis of the deposited data

Results flagged for a closer look

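Values of single arrays that lay far from the rest of their group were searched for by the gap to the nearest array over the range of the group. Of 69 groups of values, 16 were marked. Chance marks about 1 in 20 where values are not tied, a rate that does not apply to values held at the floor.

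Among the brightest probe sets of the members, 7 values were marked. Pain replicate 1 was marked high for Aldh1a2 (8.82) and Col1a2 (8.26). Conditioning under isoflurane replicate 3 was marked high for Igf2 (9.89) and Igfbp2 (9.92), and conditioning replicate 3 for Ptgds (12.97). Isoflurane replicate 4 was marked high for Mgp (8.12). The only one marked low was baseline replicate 5 for Aldh1a2 (6.72). Igfbp2 on baseline replicate 1 (11.35) was not marked, with replicate 6 of the same group at 10.01.

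The other 9 marked values came from the 3 dim Igf2 probe sets, most of whose values lie at the floor of 4.00. Where all other arrays of a group lie at the floor, the gap equals the range and a mark follows by construction. The first had 4.34 on pain replicate 3 and 5.10 on conditioning replicate 1. The second had 4.46 on baseline replicate 5, 4.78 on isoflurane replicate 2, 4.21 on conditioning replicate 5 and 4.23 on conditioning under isoflurane replicate 5. The third had 4.20 on baseline replicate 8, 4.54 on pain replicate 3 and 4.01 on conditioning replicate 2.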

How the results depend on the processing

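No alternative called a member in any comparison of groups: other scalings, filters, floors, fits of the compared groups only, each array left out, and the sets of arrays added after the data were seen all gave 0. The number of called pairs of members moved. It was 16 with all arrays, 0 without the 5 arrays with a member score above 0.4 and 0 without the highest array of each group. Leaving out each array in turn gave 8 to 18 pairs, with 8 without pain replicate 1 and 8 without conditioning under isoflurane replicate 3. With the replicate block (25 arrays, which takes out baseline replicates 6 to 9) 0 members were called, and the median difference of the members in pain minus baseline was -0.0073 in place of 0.10, as that of the interaction was -0.01 in place of 0.13. Array number and signals near background limit Col1a2, Col3a1 and the dim Igf2 probe sets.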
